A study of Mus musculus with 6 samples.

Results

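The 9 genes described here write, keep, remove or protect cytosine methylation in the mouse genome, and the data are DPPA4 CUT&RUN peaks at and around them. The members were fixed by name. Dnmt3a and Dnmt3b encode the enzymes that methylate unmethylated CpG sites, and Dnmt3l encodes their partner without catalytic activity. Dnmt1 encodes the enzyme that copies methylation onto new DNA strands, and Uhrf1 encodes the protein that recognises hemimethylated CpG sites and brings DNMT1 to them. Tet1, Tet2 and Tet3 encode dioxygenases that oxidise methylated cytosine, the first step of active removal. Zfp57 encodes a zinc finger protein that keeps methylation at imprinted regions. These 9 were taken out of 21938 protein-coding genes of the GENCODE vM21 annotation on chromosomes 1 to 19, X and Y.

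CUT&RUN directs a nuclease with an antibody to chromatin that a protein occupies, and the released fragments are sequenced. DPPA4 is a DNA-binding protein of pluripotent cells and early embryos that acts with DPPA2. Mouse embryonic stem cells (mESCs) switch at low frequency into 2-cell-like cells (2CLCs), which activate MERVL retroviral promoters. Early mouse embryos pass through a wave of demethylation, and the 9 genes hold the core machinery that sets the level of methylation.

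The series holds 6 CUT&RUN libraries of the line EHMT2-dTAG-mcherry-mervl-gfp, mESCs of the strain BL6/129 hybrid in which EHMT2, a histone H3K9 methyltransferase, carries a dTAG degron and GFP is driven by MERVL. All 6 libraries came from cells treated with dTAG for 72 h, so EHMT2 depletion was shared by every group and no untreated group is compared. Live cells were sorted into GFP-negative cells, called mESCs here, and GFP-positive cells, called 2CLCs, with 2 DPPA4 libraries each. Values given in mESCs or in 2CLCs are those of their peak lists. The other 2 libraries used IgG, 1 from GFP-negative cells and 1 from bulk cells. The tagged line was derived from picked clones and grown on feeder fibroblasts, according to the methods. Each deposited peak list is pooled over 2 DPPA4 libraries. The error between replicates therefore cannot be estimated, cell states cannot be tested against each other, and the read totals behind the lists are unknown. Peak lists hold no expression values, so the labelled cell type was not checked against marker genes.

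The GFP-negative list held 83602 peaks on the mouse chromosomes and the GFP-positive list 54642, a ratio of 0.654. Every count below is read beside that ratio, since a list with more reads or less background gives more peaks from the same occupancy. Strength is given as −log10 q, the significance that the peak caller gave to the highest point of a peak (its summit), and as a percentile within its own list. Strengths of the 2 lists are set side by side and are not on a common scale.

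All 9 genes had a DPPA4 peak at 1 or more of their promoters in both lists. A promoter was the window from 2.5 kb upstream to 0.5 kb downstream of a transcript start, and 1 shared bp counted as a peak there. Among all protein-coding genes, 70.0% had such a peak in the GFP-negative list, 61.9% in the GFP-positive list and 59.9% in both. The 9 genes have many starts, and each has at least 3 promoters. Among the 7207 protein-coding genes with at least 3, the shares were 91.5% in the GFP-negative list, 83.3% in the GFP-positive list and 82.3% in both, so a count of 9 of 9 lies close to the background.

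The individual promoters were more divided. Starts of a gene at most 500 bp apart were joined, which gave 47 promoters from 82 distinct starts, numbered along each gene from its 5′ end. Of the 47, 21 had a peak in both lists (37.5% of all promoters of protein-coding genes did), 4 in the GFP-negative list only (10.9%), 4 in the GFP-positive list only (2.93%) and 18 in neither (48.6%). In each list 25 of 47 promoters had a peak, beside a background of 48.5% in mESCs and 40.5% in 2CLCs. Whether the counts were equal depended on the cut. With a −log10 q of at least 5, which kept 34748 GFP-negative and 20601 GFP-positive peaks over all chromosomes, they were 21 in mESCs and 12 in 2CLCs. With the 10000 strongest peaks of each list they were 5 and 5. With the GFP-negative list cut to its strongest peaks, so that both lists were equally long, they were 22 and 25. Of the 82 starts, 57 had a GFP-negative peak, beside 62.4% of all such starts, and 56 a GFP-positive peak, beside 54.2%. Of the same 82, 52 had a peak in both lists, 5 in the GFP-negative list only, 4 in the GFP-positive list only and 21 in neither, where the background was 51.9%, 10.6%, 2.34% and 35.2%. Neighbouring promoters can share a peak, so these counts are not independent.

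**Figure D1:**
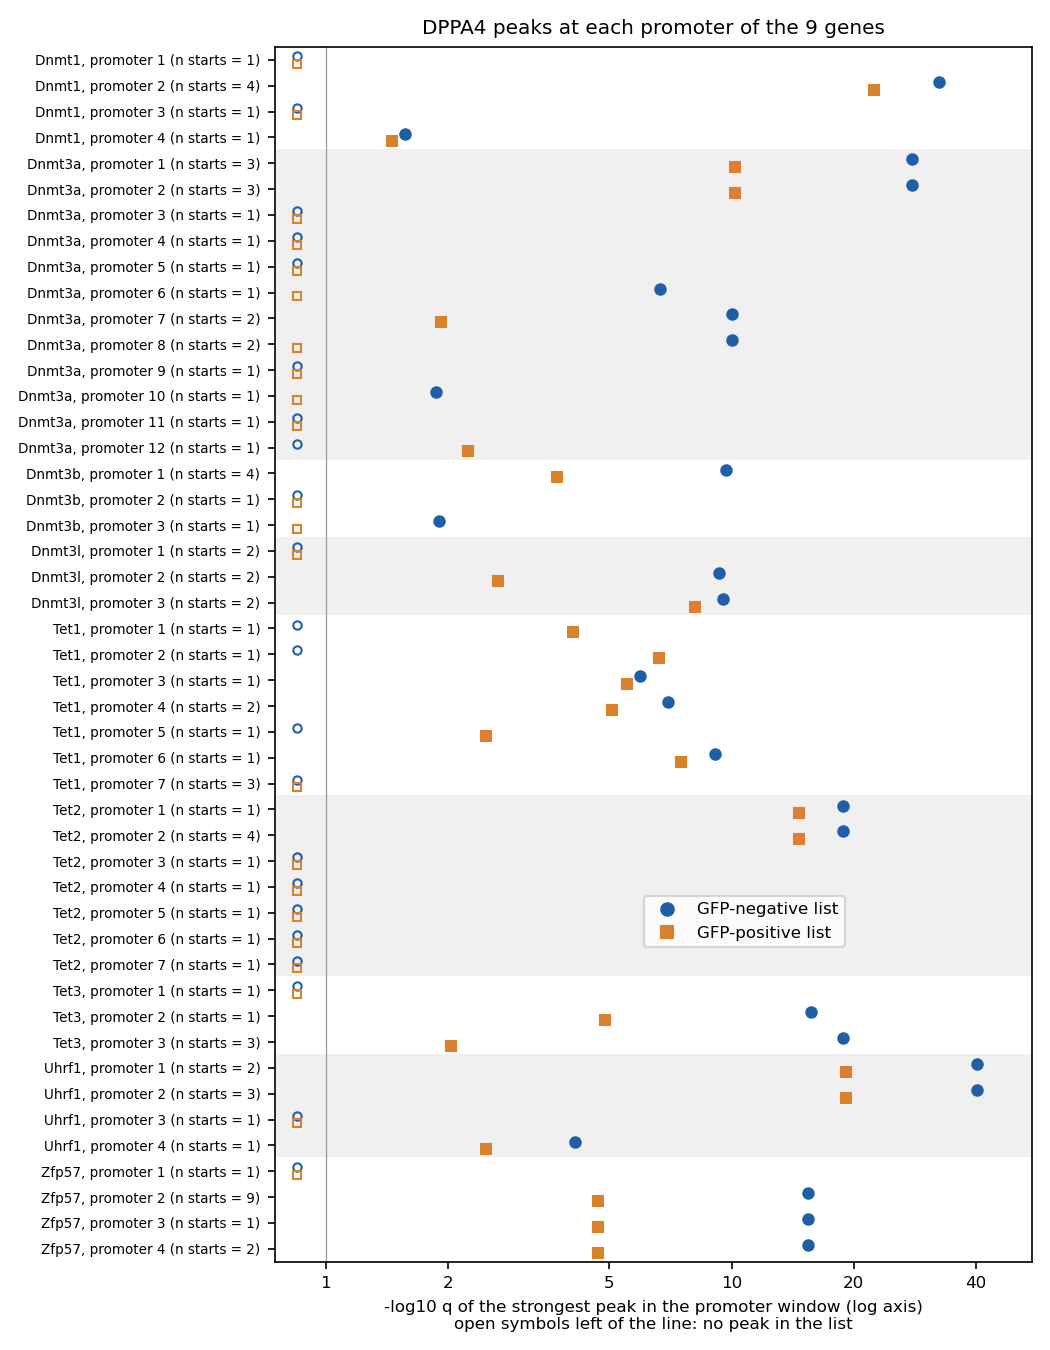
Strength of the strongest DPPA4 peak at each of the 47 promoters, as −log10 q on a log axis, in the GFP-negative list (blue circles) and the GFP-positive list (orange squares). Open symbols left of the line mark promoters without a peak in that list, as at 5 of the 7 promoters of Tet2 in both lists, and each pooled list gives 1 value without an error.

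Of the maintenance genes, Uhrf1 (ENSMUSG00000001228.14, chr17:56303321-56323486 of mm10, plus strand) had the strongest promoter peak among the 9 in the GFP-negative list. The strongest peak over promoters 1 and 2 had a −log10 q of 40.3 in mESCs and of 19.2 in 2CLCs. Among genes with a promoter peak these values stood at the 81.9th percentile and the 77.4th percentile. The summits lay 75 bp and 93 bp upstream of the start at position 56304313, which RefSeq gives for UHRF1 isoforms A and B of 782 and 774 amino acids. The bases centred on the GFP-negative summit, outside every annotated exon, are shown because this is the strongest promoter site of the 9 genes, with the 11 CpG sites in capitals.
Uhrf1 promoter 2, chr17:56304188-56304288, plus strand: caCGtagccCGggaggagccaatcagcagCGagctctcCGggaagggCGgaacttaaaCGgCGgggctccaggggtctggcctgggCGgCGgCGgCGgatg

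Promoter 3 of Uhrf1 had no peak, and promoter 4, the start of a transcript without a coding sequence, was touched by weak peaks, with a −log10 q of 4.12 in mESCs and 2.48 in 2CLCs. A separate peak in intron 13 was in the GFP-positive list only, with a −log10 q of 3.12. In all, 17.6% of the Uhrf1 gene body was covered by GFP-negative peaks and 22.7% by GFP-positive peaks. The strongest peak within 50 kb was not at Uhrf1 but at the promoter of its neighbour Kdm4b, which encodes a histone H3K9 demethylase, with a −log10 q of 107.9 in mESCs and 58.0 in 2CLCs.

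Dnmt1 (ENSMUSG00000004099.16, chr9:20907209-20959888, minus strand) had the next strongest promoter peak in mESCs and the strongest in 2CLCs. At promoter 2, whose start at position 20952979 RefSeq gives for isoform 1 of 1620 amino acids, the −log10 q was 32.5 in mESCs and 22.4 in 2CLCs. These stood at the 75.4th percentile and the 83.1st percentile of genes with a promoter peak. Promoter 1 lies 6909 bp upstream, at the start that RefSeq gives for the shorter isoform 3 of 1501 amino acids, and had no peak in either list, the nearest GFP-negative peak being 110 bp outside its window. The sequence beside the GFP-negative summit, 26 bp upstream of it to stay clear of the exon, is shown for comparison with Uhrf1 and holds 5 CpG sites, in capitals.
Dnmt1 promoter 2, chr9:20952980-20953080, minus strand: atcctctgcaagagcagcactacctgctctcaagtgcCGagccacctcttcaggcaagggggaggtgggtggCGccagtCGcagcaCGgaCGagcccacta

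Away from promoter 2 the gene held weak peaks. Promoter 3 had none, and promoter 4, near the 3′ end, had a −log10 q of 1.57 in mESCs and 1.46 in 2CLCs. In the GFP-negative list, 4 intronic summits had a −log10 q from 1.44 to 3.66, and in the GFP-positive list a single one, in intron 30, had a −log10 q of 1.51. Within 50 kb of Dnmt1 there were 30 GFP-negative and 11 GFP-positive peaks, a ratio of 0.367. Of the 30 merged regions there, 9 were common, 20 were in the GFP-negative list only and 1 was in the GFP-positive list only. The strongest GFP-negative peak lay in an exon of Angptl6, with a −log10 q of 63.9, and the GFP-positive peak there had 21.1, below that of Dnmt1 promoter 2.

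Of the genes that set new methylation, Dnmt3a (ENSMUSG00000020661.15, chr12:3806007-3914443, plus strand) has the most promoters, 12. Promoters 1 and 2 were reached by the same peaks, and RefSeq starts the long isoform of 908 amino acids there. The strongest had a −log10 q of 27.9 in mESCs, 356 bp past the first start, and of 10.2 in the GFP-positive list, 2078 bp past it in intron 1. The GFP-negative list split this area into 2 peaks, the other with a −log10 q of 12.8 at 2000 bp, and the GFP-positive list joined it into 1 peak of 3429 bp.

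Promoter 7 of Dnmt3a, 85721 bp further on, gives the short isoform of 689 amino acids (DNMT3A2), the form known for its abundance in mESCs and germ cells. It had a −log10 q of 10.04 in mESCs, at the 75.7th percentile of that list, and of 1.93 in the GFP-positive list, at the 26.3rd percentile. Around it, promoters 6, 8 and 10 had a peak in the GFP-negative list only, with a −log10 q of 6.68, 10.04 and 1.87, and the peak at promoter 8 was the one at promoter 7. Promoter 12, near the 3′ end, had a peak in the GFP-positive list only, with a −log10 q of 2.24. The other 5 promoters, numbers 3, 4, 5, 9 and 11, had none. The sequences at the GFP-negative summits of promoters 1 and 7 are shown because the strengths of the lists differ at both, with the 8 and 3 CpG sites in capitals.
Dnmt3a promoter 1, chr12:3806313-3806413, plus strand: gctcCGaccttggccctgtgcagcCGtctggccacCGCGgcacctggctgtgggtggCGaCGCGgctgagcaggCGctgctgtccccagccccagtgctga
Dnmt3a promoter 7, chr12:3891433-3891533, plus strand: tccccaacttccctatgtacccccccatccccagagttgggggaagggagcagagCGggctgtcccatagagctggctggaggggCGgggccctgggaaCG

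Introns of Dnmt3a held 10 GFP-negative and 5 GFP-positive summits, the most of the 9 genes in the GFP-negative list. In the GFP-negative list they lay in introns 1, 2, 4 and 6, and the strongest apart from the peak beside promoter 2 had a −log10 q of 7.60, in intron 1. The summits in introns 2 and 4 were in common regions, with a −log10 q in the GFP-positive list of 2.503, 2.478 and 4.61. The strongest peak of the whole window was intergenic, 14043 bp upstream of the first start. It had its summit at the same base in both lists, was narrow at 294 bp and 237 bp, and had a −log10 q of 33.0 in mESCs and 12.2 in 2CLCs.

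Dnmt3b (ENSMUSG00000027478.15, chr2:153649450-153687730, plus strand) starts all of its 10 coding transcripts at promoter 1. There the GFP-negative list had a peak with its summit 5 bp upstream of the first start and a −log10 q of 9.68. The GFP-positive list had a peak with its summit 1 bp downstream of the start and a −log10 q of 1.59, and a stronger peak of 3.71 whose summit, at 801 bp, fell in the promoter of the antisense gene Dnmt3bos. Reads of the 2 genes cannot be assigned here, since peaks carry no strand. Promoter 3, inside the gene, had a GFP-negative peak only, with a −log10 q of 1.90, and promoter 2 had none. No summit lay in an intron of Dnmt3b outside promoter windows in either list.

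Dnmt3l (ENSMUSG00000000730.13, chr10:78041947-78063622, plus strand) had no peak at promoter 1, the most upstream start, and peaks in both lists at promoters 2 and 3. A GFP-negative peak began 22 bp downstream of the promoter 1 window, with its summit in the promoter of another gene, Aire. At promoter 2, whose start at position 78049842 RefSeq gives for the 421-amino-acid isoform, the peak at the start had a −log10 q of 9.32 in mESCs and 2.09 in 2CLCs. A second peak further upstream in the same promoter window had 5.49 in mESCs and 2.66 in 2CLCs. At promoter 3, which gives an isoform of 126 amino acids, it was 9.55 and 8.12, at the 74.9th percentile and the 74.5th percentile of the lists. The strongest GFP-negative peak of the window was at the promoter of Pfkl, which encodes a liver-type phosphofructokinase subunit, with a −log10 q of 24.5.

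Among the dioxygenase genes, Tet1 (ENSMUSG00000047146.17, chr10:62804570-62908996, minus strand) was the member with more GFP-positive than GFP-negative peaks within 50 kb, 18 against 13. The ratio was 1.38, beside 0.654 over all peaks and 0.367 to 0.800 at the other 8 genes. Of the 21 merged regions around Tet1, 9 were common, 3 were in the GFP-negative list only and 9 were in the GFP-positive list only. These were 42.9%, 14.3% and 42.9%, beside 35.0%, 46.7% and 18.4% of all merged regions. With only peaks of −log10 q of at least 5 the counts were 8 GFP-negative and 7 GFP-positive, so the excess in number was lost. The ratio was then 0.875, beside 0.593 over all peaks at that threshold. With lists of equal length, the strongest GFP-negative peaks kept, they were 8 and 18.

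Of the 7 promoters of Tet1, 3 had a peak in the GFP-positive list only, 3 in both and 1 in neither. Promoter 1, the most 5′ start, had a GFP-positive peak 2145 bp upstream of it with a −log10 q of 4.06. Promoter 2 was covered at its start by a GFP-positive peak of 3762 bp with a −log10 q of 6.62. The matching GFP-negative peak, 1788 bp wide with a −log10 q of 5.89, ended 3 bp outside the window. The region is common to both lists and neither summit lay in the window, so the GFP-positive-only call rests on those 3 bp. Promoter 5 had a GFP-positive peak with a −log10 q of 2.48. Promoter 4, whose RefSeq start gives the isoform of 2039 amino acids, was reached in both lists by broad peaks with summits further downstream, 4023 bp wide in mESCs and 3679 bp in 2CLCs, with a −log10 q of 6.97 and 5.09. The strongest promoter peak of Tet1 was at promoter 6, the start of a transcript without a coding sequence, with a −log10 q of 9.09 in mESCs and 7.49 in 2CLCs. The sequences at 2 GFP-positive-only promoter summits are shown because these promoters differ between the lists, with 0 and 3 CpG sites in capitals.
Tet1 promoter 1, chr10:62911091-62911191, minus strand: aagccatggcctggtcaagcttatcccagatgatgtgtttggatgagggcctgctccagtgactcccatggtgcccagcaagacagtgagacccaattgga
Tet1 promoter 5, chr10:62881311-62881411, minus strand: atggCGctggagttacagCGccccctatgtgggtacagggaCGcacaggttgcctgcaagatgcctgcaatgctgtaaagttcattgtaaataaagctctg

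Introns of Tet1 held 5 GFP-negative and 6 GFP-positive summits. The strongest GFP-negative peak of the gene, with a −log10 q of 14.7, lay 5994 bp past the first start, and the GFP-positive peak of the same region had a −log10 q of 4.91. The intron peaks in the GFP-positive list only lay 30858 bp and 35499 bp past the first start, with a −log10 q of 4.27 and 4.49. The summit of the second is in repeated sequence, where 31-base words occur a median of 126 times on the mouse chromosomes. Reads with many equal matches were placed at a random copy. Whether the longer reads of this peak had many matches was not checked, so which copy was occupied is uncertain. GFP-positive peaks covered 14.7% of the Tet1 gene body and GFP-negative peaks 10.3%. The strongest peaks of the window were at the promoters of other genes, Dna2 in the GFP-negative list and Ccar1 in the GFP-positive list. Dna2 had a −log10 q of 20.9 in mESCs and 8.31 in 2CLCs, and Ccar1 had 16.6 and 8.40.

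Tet2 (ENSMUSG00000040943.12, chr3:133463679-133545139, minus strand) had all of its summits inside the gene body, 8 GFP-negative and 3 GFP-positive. A single peak spanned promoters 1 and 2 in each list, with its summit 5 bp downstream of a start of promoter 2 in mESCs and 6 bp upstream of it in 2CLCs. Its −log10 q was 18.8 in mESCs and 14.7 in 2CLCs, at the 86.9th and 86.4th percentiles. The 5 internal promoters had no peak. Intron 1 held every intronic summit outside promoter windows, 6 GFP-negative and 1 GFP-positive, and the strongest of them was in a common region 10853 bp past the first start in mESCs and 11404 bp past it in 2CLCs, with a −log10 q of 9.49 in mESCs and 10.2 in 2CLCs. The other 5 intronic peaks were in the GFP-negative list only, with a −log10 q from 1.45 to 4.74.

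Tet3 (ENSMUSG00000034832.15, chr6:83362373-83459084, minus strand) had peaks in both lists at its RefSeq starts. At promoter 2, which gives the isoform of 1803 amino acids, the −log10 q was 15.7 in mESCs and 4.87 in 2CLCs. At promoter 3, which gives the isoform of 1668 amino acids, it was 18.8 and 2.04, at the 86.7th percentile of the GFP-negative list and the 27.7th percentile of the GFP-positive list. Promoter 1 had none. No summit lay in an intron of Tet3 outside promoter windows in either list. A GFP-negative summit in intron 2, with a −log10 q of 4.12, fell in the promoter window of another gene, 5430434F05Rik. In its exons lay 5 GFP-negative and 3 GFP-positive summits, mostly near the 3′ end, with a −log10 q of at most 5.49. The GFP-negative summit at promoter 2 is shown as the most CpG-dense of the sites printed, with 14 CpG sites in capitals.
Tet3 promoter 2, chr6:83455974-83456074, minus strand: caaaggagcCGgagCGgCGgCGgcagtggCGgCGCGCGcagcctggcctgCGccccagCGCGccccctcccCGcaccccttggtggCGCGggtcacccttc

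The window of Tet3 held stronger peaks at other genes. The promoter of Mthfd2, which encodes a mitochondrial folate enzyme, had a −log10 q of 53.0 in mESCs and 14.5 in 2CLCs. The promoters of Bola3 and Dguok had 50.6 and 46.9 in the GFP-negative list. In the GFP-positive list Dguok had the strongest peak of the window, with a −log10 q of 14.65.

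Zfp57 (ENSMUSG00000036036.15, chr17:37001163-37010635, plus strand) had 1 peak in each list inside the gene, which served promoters 2, 3 and 4. Its summit lay within 15 bp of a start of promoter 2, where RefSeq begins isoform 1 of 421 amino acids. The −log10 q was 15.4 in mESCs and 4.70 in 2CLCs, at the 83.5th percentile and the 60.5th percentile. Promoter 1, 1319 bp upstream, gives isoform 2 of 418 amino acids in RefSeq and had no peak, and no other summit lay in the gene. At the edge of the window, the promoter of Ppp1r11 had a −log10 q of 36.1 in mESCs and 20.4 in 2CLCs.

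**Figure D2:**
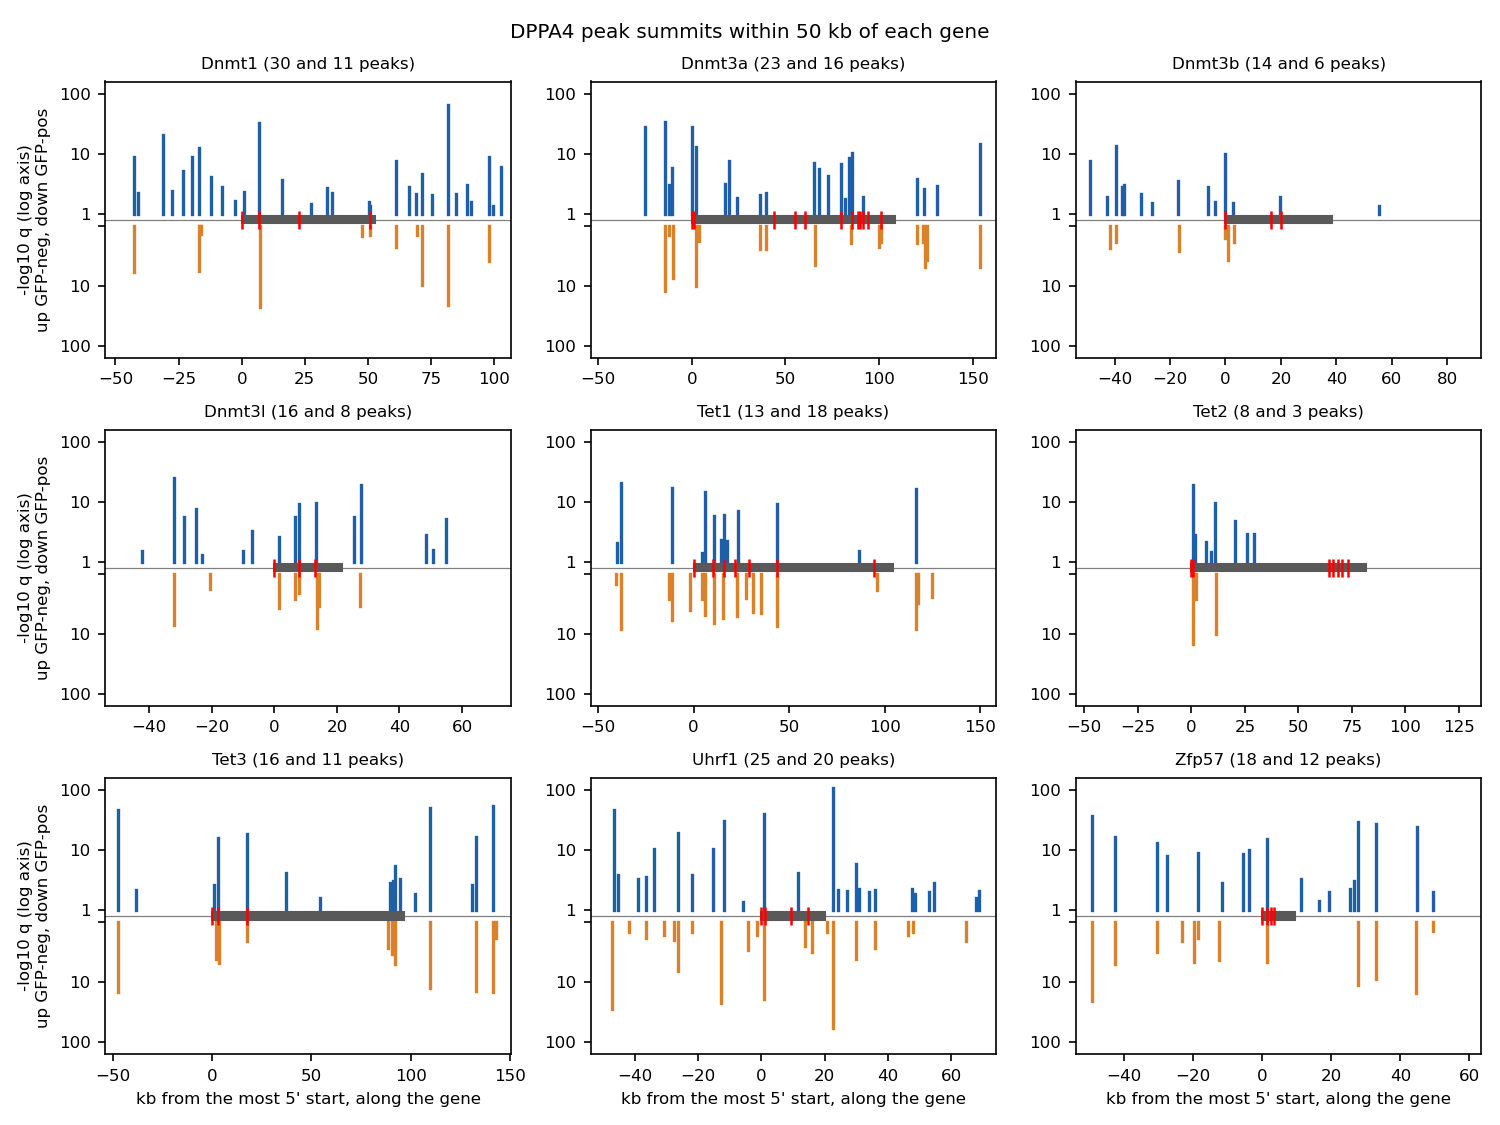
DPPA4 peak summits within 50 kb of each gene body, by distance in kb from the most 5′ start along the gene, with −log10 q on a log axis upward for the GFP-negative list (blue) and downward for the GFP-positive list (orange). The grey bar is the gene body and red ticks are promoters, and the titles give the number of GFP-negative and GFP-positive peaks, with 8 and 3 at Tet2, 30 and 11 at Dnmt1 and 25 and 20 at Uhrf1.

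Set side by side, the best promoter peaks of the 9 genes had a median −log10 q of 18.8 in mESCs, with a range from 9.09 (Tet1) to 40.3 (Uhrf1). All protein-coding genes with a promoter peak had a median of 15.7 there. In the GFP-positive list the median was 8.12, with a range from 3.71 (Dnmt3b) to 22.4 (Dnmt1), beside 9.64 for all such genes. In percentiles among genes, Tet3 stood at 56.3 in mESCs and 26.3 in 2CLCs, Zfp57 at 49.3 and 25.5, Dnmt3a at 69.9 and 52.8, and Dnmt3b at 33.8 and 19.7. Uhrf1 stood at 81.9 and 77.4 and Dnmt1 at 75.4 and 83.1. Tet2 stood at 56.9 and 67.6, Tet1 at 31.6 and 40.9, and Dnmt3l at 33.7 and 43.2. These percentiles are taken among the 15360 and 13581 genes with a promoter peak in lists of unequal length and describe standing within each list, not a change between cell states. Each best peak was the strongest over all promoters of its gene, which number from 3 to 12 in the 9 genes. More promoters give more windows, and these medians and percentiles were not matched for promoter number. The paired values need not describe the same site. For Tet3 the best peak was at promoter 3 in mESCs and at promoter 2 in 2CLCs. In the GFP-positive list the best peak had its summit in intron 1 for Dnmt3a and in the promoter of Dnmt3bos for Dnmt3b.

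Across the windows of 50 kb on either side of the gene bodies, the 9 genes had 163 GFP-negative and 105 GFP-positive peaks. Summits in their own promoters numbered 22 and 21, in their introns outside any promoter window 26 and 15, and in their exons 7 and 4. Intergenic summits numbered 37 and 13, and the rest lay in other genes. Merging peaks that shared 1 bp gave 187 regions. Of these, 72 were common, 38.5%, beside 35.0% of all merged regions. Those in the GFP-negative list only were 86, 46.0%, beside 46.7%, and those in the GFP-positive list only were 29, 15.5%, beside 18.4%. Tet1 and Uhrf1 held 9 each of the 29, Dnmt3a held 5, Dnmt3l 2, and Dnmt1, Dnmt3b, Tet3 and Zfp57 held 1 each, while Tet2 held 0. Peaks in multi-copy sequence were few, with a copy number of 1 at 160 of the 163 GFP-negative summits and 100 of the 105 GFP-positive summits. They fell mostly in regions of 1 list. GFP-positive-only regions held those at Tet1 (126 copies), Dnmt3l (96), Uhrf1 (69) and Dnmt3a (4), and GFP-negative-only regions those at Dnmt3b (106) and Dnmt1 (3).

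**Figure D3:**
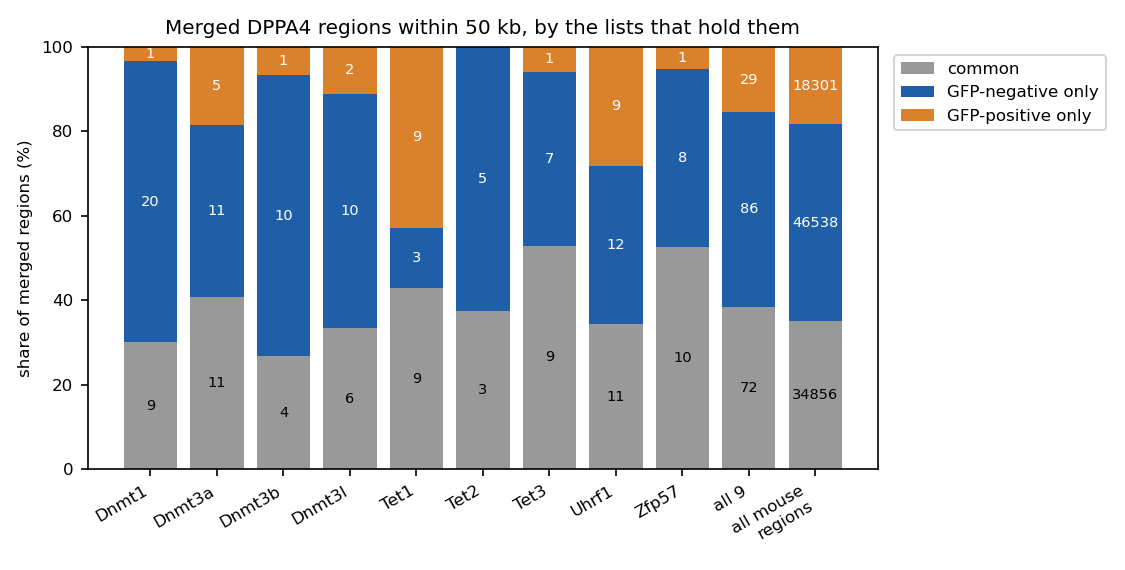
Share of merged DPPA4 regions within 50 kb of each gene that were common to both lists (grey), in the GFP-negative list only (blue) or in the GFP-positive list only (orange), with the number of regions in each segment. At Tet1 9 of 21 regions were in the GFP-positive list only, and at Dnmt1 1 of 30, beside 18.4% of all mouse regions.

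Peak density put Uhrf1 and Tet2 at opposite ends of the 9. Uhrf1 had 20.8 GFP-negative and 16.6 GFP-positive peaks per 100 kb of its window, at the 91.8th and 93.8th percentiles of protein-coding genes. Of its 25 and 20 peaks only 2 and 3 had their summit in the gene body, so this density mostly describes the flanks. Tet2 had 4.41 and 1.65, at the 48.4th and 32.0th percentiles. Dnmt1 stood at the 90.4th percentile in the GFP-negative list and the 73.4th in the GFP-positive list, and Tet1 at the 59.1st and the 78.7th.

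The sequence around the starts, which the choice of genes did not use, went with the presence of a peak in both lists. In the 1000 bases around the first start of each promoter, the CpG count over that expected from base composition had a median of 0.533 at the 21 promoters with a peak in both lists and of 0.209 at the 18 with a peak in neither. Over all protein-coding genes the medians were 0.651 and 0.204. The bound promoters spanned a range from 0.100, at Tet1 promoter 3, to 0.982, at Dnmt3a promoter 2, and the unbound ones from 0 to 0.353. The 4 promoters with a GFP-negative peak only had a median of 0.244, beside 0.317 over all protein-coding genes. The 4 with a GFP-positive peak only had a median of 0.209, beside 0.242. Among these, Tet1 promoter 5 had 0.634. The 5 unbound promoters of Tet2 had values from 0 to 0.338. Of the 18 promoters with a peak in neither list 14 were not the first of their gene, and of the 21 with a peak in both lists 17 were not. These values are descriptions of sequence and carry no test.

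**Figure D4:**
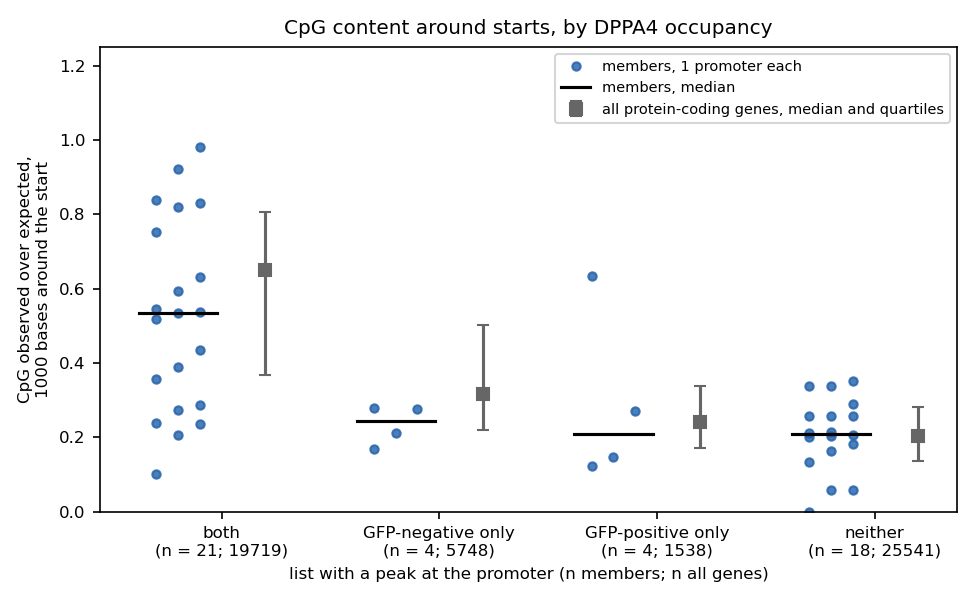
CpG observed over expected in the 1000 bases around the first start of each promoter, by the lists with a peak there. Blue points are the 47 promoters of the 9 genes with their median as a black line (0.533 for both lists, 0.209 for neither), and grey squares with bars are the median and quartiles of all protein-coding genes.

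In the 300 bases around the summits themselves, promoter peaks of the 9 genes had a median GC content of 56.7% in the GFP-negative list (22 summits) and 55.7% in the GFP-positive list (21 summits), beside 60.0% and 61.0% for promoter peaks of all protein-coding genes. Their CpG ratios had medians of 0.414 and 0.435, beside 0.601 and 0.668. Intronic summits had medians of 0.248 and 0.242. The GC box GGGCGG, read on both strands, was found at 10 of 22 and 9 of 21 promoter summits, 45.5% and 42.9%, beside 52.2% and 54.2% of all promoter peaks. The E-box CACGTG was found at 2 and 2, 9.09% and 9.52%, beside 7.79% and 7.85%. A match says only that these letters are in the window.

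A list of 32 further genes of the pathway was read the same way. In the GFP-negative list 32 of 32 had a promoter peak, and in the GFP-positive list 29 of 32, beside the 70.0% and 61.9% of all protein-coding genes. The number of promoters among the 32 ran from 1, as at Dppa3, Apex1 and Ahcy, to 9 at Usp7. Among genes with at least 3 the shares were 91.5% and 83.3%. Most of the 32 have fewer than 3, so those shares are not their background, and no background matched to the 32 was computed. With a −log10 q of at least 5 the counts were 25 and 24. The 9 genes grouped here as readers of methylated CpG sites and the 9 partners in targeting and maintenance had a peak in both lists. The grouping, which includes Mbd3, does not mean that each product binds methylated sites. The methyl donor genes Mat2a and Ahcy and the related enzyme gene Trdmt1 also had a peak in both lists. The strongest were Mbd4, which encodes a glycosylase that binds methylated CpG sites, with a −log10 q of 127.6 in mESCs and 71.9 in 2CLCs, and Mbd3, a subunit of the NuRD complex, with 98.7 and 54.3. The 3 genes without a GFP-positive peak were 9.4% of the 32, near the 10.1% of all protein-coding genes with a GFP-negative peak only. All 3 were among the 11 genes grouped as oxidised-base removal and TET partners, and a difference between the groups was not tested. They were Tdg, the glycosylase that removes oxidised methylcytosine, at 4.98 in mESCs, Smug1, another glycosylase, at 12.99, and Ogt, the O-GlcNAc transferase that binds TET proteins, at a −log10 q of 2.89. Dppa3, whose product keeps UHRF1 away from chromatin, had 22.2 in mESCs and 3.44 in 2CLCs, at the 62.3rd and 17.5th percentiles of genes with a promoter peak. Trim28, the corepressor that ZFP57 recruits, had 51.2 and 41.1, at the 88.3rd and 96.3rd percentiles. Apex1, which encodes the endonuclease that cuts abasic sites, had 3.82 and 8.94, at the 12.8th and 46.4th percentiles.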

How the data were processed

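CUT&RUN of DPPA4 was profiled in sorted mouse cells, and sample titles gave the groups. As their methods give it, the authors trimmed reads with bbduk, aligned them with STAR 2.7.10 placing multimapping reads at a single best or random position, processed them with Picard 2.26.0, SAMtools 1.14 and bedtools 2.30.0 (versions from the submitters' processing notes), removed blacklisted regions and called peaks with MACS2 2.2.6 on fragments. Whether IgG served as control is not given in the sources used here. The deposited lists give, per peak, coordinates and a summit offset, a score, a fold enrichment ratio over background, and −log10 p-values and −log10 q-values. The lowest deposited −log10 q was 1.30, a q-value of 0.05. Read depth is unknown. There were 0 unused per-sample columns.

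Peaks were intersected with GENCODE vM21 on GRCm38.p6, which carries the mm10 sequence, in Python 3.11.15 with numpy 2.4.6. Coordinates are 1-based. Summits were assigned to promoters first, then exons, introns and intergenic sequence. Copy number was the median genomic count of 31-base words at a summit. Isoforms are from RefSeq on the same assembly. All 9 genes, pathway genes lacking a peak in a list, and neighbours holding the strongest peak of a window in either list were named by rule. Mbd3, Mbd4, Mat2a, Ahcy, Trdmt1, Apex1, Dppa3, Trim28, Usp7 and Bola3 were named after their values were seen. The genes and lists were chosen with earlier results of these data known. The counting code was checked on made-up intervals with known answers. No test was run, since each list pools its replicates. The alternatives tried were stricter peak lists, other windows, summit placement, coding transcripts only and other joins of starts.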

Additional observations from a re-analysis of the deposited data

How the results depend on the processing

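No paired analysis was possible because both lists were pooled by the authors over their libraries, and leaving out a replicate was not possible for the same reason. Of 88 recomputed values, 51 stayed within 1.5 times the reported value. With a −log10 q of at least 5, members with a promoter peak were 9 GFP-negative and 6 GFP-positive, with Dnmt3b, Tet3 and Zfp57 lost from the latter, promoters with a peak were 21 and 12, and starts 53 and 27. Intronic peaks were 8 GFP-negative and 4 GFP-positive, peaks within 50 kb were 70 and 34, and regions were 33 common, 35 GFP-negative only and 1 GFP-positive only. With the 10000 strongest peaks of each list, 3 members had a promoter peak in mESCs and 3 in 2CLCs. Promoters were then 5 and 5, starts 15 and 14, pathway genes 14 and 14, intronic peaks 0 and 0, peaks within 50 kb 19 and 14, and regions 12 common, 7 GFP-negative only and 2 GFP-positive only. With lists of equal length, intronic peaks were 16 GFP-negative and 15 GFP-positive, and peaks within 50 kb were 108 and 105. Regions were then 62 common, 43 GFP-negative only and 39 GFP-positive only, so the counts of the 2 lists lay close together. A flank of 10 kb gave 80 and 51 peaks and 35 common, 42 GFP-negative-only and 14 GFP-positive-only regions. Requiring summits within 200 bp for a common region gave 52 common, 106 GFP-negative-only and 49 GFP-positive-only regions.

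The excess of GFP-positive over GFP-negative peaks at Tet1, 5 as reported, turned to -1 with a −log10 q of at least 5, from 8 and 7 peaks, and to -1 with the 10000 strongest peaks, where only 1 GFP-negative and 0 GFP-positive peaks were left. It was 10 with lists of equal length and 2 with a flank of 10 kb. All alternatives for Tet1 were chosen after seeing the data. All 9 members kept a promoter peak in both lists with a promoter of 1 kb on either side, with protein-coding transcripts only, with the summit in the window and with lists of equal length. The cause of these changes was not tested beyond the smaller lists and windows themselves. The unknown read totals limit every comparison of the lists.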
